A study of Mus musculus with 4 samples.

Results

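Translation initiation factors are the proteins that bring a ribosome to the start codon of an mRNA. The genes described here were all those in the count tables whose symbol begins with Eif and a digit from 1 to 6, without the Y-linked *Eif2s3y* and without pseudogene symbols ending in -ps. The rule found 54 of 21926 genes and used no measured value. They were grouped by the factor they encode: eIF1 and eIF1A (4 genes), eIF2 (3), eIF2A and eIF2D (2), eIF2B (5), the eIF2 kinases (4), eIF3 (14), eIF4A with eIF4B and eIF4H (4), eIF4A3 (1), eIF4E (4), the eIF4E-binding proteins (4), eIF4G (3), eIF5 and eIF5B (2), eIF5A (2) and eIF6 (1). *Eif1ad* matches the rule by its name only. Each had 1 Ensembl identifier. In both libraries the same number of members, 2 of 54, had no UMI, the germ cell eIF4E gene *Eif4e1b* and the binding protein gene *Eif4ebp3*.

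Thymocytes came from 2 mice, 1 WT and 1 *Eif4g2* cKO, and each gave 1 single-cell RNA-seq library on the DNBelab C4 system. Both mice carried *Eif4g2* flox/flox alleles on a C57BL/6 background, were labelled as 5-week-old females and were given as unsorted primary cells of the thymus in the same batch. The *Eif4g2* cKO mouse also carried *CD4-Cre*, which acts from the double-positive (DP) stage onward, so the alleles of double-negative (DN) cells are floxed and not expected to be recombined. The loxP sites flank exons 2 to 21 of *Eif4g2*, and the last exon, 22, with the 3′ UTR stays in the deleted allele. The tag counted in this method lies near the 3′ end of a transcript, so the counts of *Eif4g2* give the level of transcripts with that end and do not check the deletion.

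In the textbook scheme, eIF1, eIF1A, eIF3 and eIF5 load onto the small ribosomal subunit with eIF2, which carries the initiator methionyl-tRNA as a ternary complex with GTP. eIF2B recharges eIF2 with GTP, and 4 kinases that respond to different stresses (HRI, PKR, PERK and GCN2) phosphorylate eIF2 and so block eIF2B. The mRNA is brought by eIF4F, made of the cap-binding protein eIF4E, the helicase eIF4A and the scaffold eIF4G; unphosphorylated 4E-BPs compete with eIF4G for eIF4E. eIF4G2, also called DAP5, resembles the part of eIF4G1 and eIF4G3 that binds eIF4A and eIF3, but lacks the eIF4E-binding part. eIF5B joins the subunits, eIF6 keeps free large subunits apart from small ones, and eIF5A, despite its name, helps elongation through difficult peptide bonds. In the thymus, DN cells and the blasts that follow them divide and grow, most DP cells are small and resting, and cells that pass positive selection move on to the single-positive (SP) stage.

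Promoter windows of the members are shown so that the genes of the mRNA-binding step, whose levels parted across the stages, can also be compared by sequence. Of the 54 members, 42 had a promoter in the RefSeq table for GRCm38.p6, which gives 250 bases before and 50 after each start site. The E-box CACGTG, a palindrome that reads the same on both strands, was found in the window of 10 of 42 members (23.8%), against 2187 of 27025 genes in the table (8.09%). These 10 were *Eif1b*, *Eif3a*, *Eif3f*, *Eif3k*, *Eif4a1*, *Eif4e*, *Eif4g1*, *Eif4h*, *Eif5a* and *Eif5a2*. The match is a description of the letters and was not tested as a binding site. The windows of 30 bases around the motif are given for the members of the cap-binding step and for *Eif5a* and *Eif1b*, each on the strand of its gene and before the start site, with the motif in capitals:
Eif4a1, chr11:69672595-69672624, minus strand: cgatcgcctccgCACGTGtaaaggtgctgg
Eif4e, chr3:138527028-138527057, plus strand: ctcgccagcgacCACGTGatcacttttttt
Eif4e, chr3:138527192-138527221, plus strand: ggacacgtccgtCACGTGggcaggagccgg
Eif4g1, chr16:20672661-20672690, plus strand: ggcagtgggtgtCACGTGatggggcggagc
Eif4h, chr5:134639488-134639517, minus strand: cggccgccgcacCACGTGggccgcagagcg
Eif5a, chr11:69920791-69920820, minus strand: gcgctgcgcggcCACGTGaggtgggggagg
Eif5a, chr11:69921443-69921472, minus strand: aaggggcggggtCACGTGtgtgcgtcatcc
Eif1b, chr9:120492570-120492599, plus strand: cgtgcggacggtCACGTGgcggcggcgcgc
Of these 10 genes, 2 (*Eif4a1* and *Eif5a*) were among the 9 members that were lower in DP-like than in cycling-like cells of both libraries, which made up 18% of the 50 members tested and 13.6% of all genes. None of the 10 was among the 6 members that were higher in that comparison in both libraries. Set against DN-like cells instead, *Eif1b* was higher in DP-like cells of both libraries, and *Eif4a1* and *Eif5a* were lower. *Eif4g1* was not past 0.5 in any stage comparison in the main setting.

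The WT table held 18355050 UMIs in 6014 barcodes and that of the *Eif4g2* cKO mouse held 18056277 UMIs in 4335. Cells were clustered without the members and named from marker genes, and UMIs were summed by class and library and scaled to the class total (counts per 1000000 UMIs, CPM). Values in brackets are exact 95% intervals of the value before them and cover counting error only. Each genotype was 1 mouse, so no replicate spread is known and no test was made. A member was counted as higher or lower when its log2 ratio was past 0.5 with at least 50 UMIs over both sides. In bulk sums of this kind, fewer transcripts per cell and a class of another make-up cannot be told apart. The classes held 99 WT and 131 *Eif4g2* cKO DN-like cells, 974 and 1299 in the cycling-like class, 3344 and 2092 in the DP-like class, 613 and 492 in the early post-selection-like class, and 812 and 278 in the mature SP-like class. Their totals ran from 632344 UMIs (DN-like, WT) to 11291096 (cycling-like, *Eif4g2* cKO). *Rag1*, which recombines antigen receptor genes, was at 978 CPM in WT DP-like cells and 71.8 in WT mature SP-like cells, and *Ccr7*, a receptor of mature cells, at 10.3 and 289. In the *Eif4g2* cKO library *Rag1* was at 1022 and 104 CPM and *Ccr7* at 4.62 and 147. The classes were not alike in make-up between the libraries. In mature SP-like cells *Cd4* was at 330 CPM in WT and 530 in *Eif4g2* cKO cells, and *Cd8a* at 379 and 337. Epithelial markers summed to 111 CPM in WT and 52.5 in *Eif4g2* cKO DN-like cells, and to at most 14.4 in the other classes.

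The libraries differed in ways that the genotype does not give. Transcripts of the Y chromosome (*Eif2s3y*, *Kdm5d* and *Uty*) reached 2542 UMIs in WT cells but 1 in *Eif4g2* cKO cells, against the label of the WT mouse as female. Hemoglobin and *Alas2* transcripts (5 erythroid markers) summed to 194 to 297 CPM over the 5 WT classes, with none of the 5 at 0, and to 11.6 to 83.6 CPM over the *Eif4g2* cKO classes, with *Alas2* at 0. Ribosomal protein genes took 17.6% of UMIs in WT and 24.1% in *Eif4g2* cKO DP-like cells, and genes that span over 100 kb took 12.8% and 7.43%. Different clusters held most DP-like cells of each library: cluster 0 held 2329 WT and 110 *Eif4g2* cKO cells, cluster 1 held 806 and 169, and cluster 3 held 209 and 1813. Among cycling-like cells, cluster 6 held 602 WT and 58 *Eif4g2* cKO cells and cluster 9 held 41 and 658. The files share 1055 cell names, which are running numbers of each library and not barcode sequences. The part of any of these in the values below was not tested.

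Together the 54 members made up between 0.805% and 1.12% of all UMIs of a class. In the WT library their summed level was lowest in mature SP-like cells (8047 CPM) and highest in early post-selection-like cells (9896 CPM), with cycling-like cells close behind at 9846. It was higher in the *Eif4g2* cKO library in all 5 classes, at 10728 against 9846 CPM in cycling-like cells and 10753 against 8817 in DP-like cells. Without *Eif1*, *Eif5a* and *Eif4a1* the sums were 7084 and 7611 CPM in DP-like cells and 7294 and 7204 in cycling-like cells. The library difference of the whole was thus in large part that of these 3 genes, and *Eif1* had the largest difference of the 3 in both classes.

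The factor groups did not follow 1 course over the stages. eIF3, the scaffold on the small subunit, had the narrowest range relative to its level: its 14 genes summed to 3109.7 to 3430.1 CPM over the 5 WT classes and to 2999.7 to 3457 CPM over the *Eif4g2* cKO classes. eIF2 went from 804 CPM in cycling-like to 432 in DP-like WT cells and from 891 to 562 in the *Eif4g2* cKO library. This sum leaves out the Y-linked *Eif2s3y*, which had 234 UMIs in cycling-like and 508 in DP-like WT cells. *Eif2s3x* and *Eif2s3y* together were at 62.3 and 121 CPM in these WT classes and at 60.8 and 50.5 CPM in the *Eif4g2* cKO library. The WT course and the library difference of eIF2 therefore rest in part on that exclusion. The sum of eIF5A differed by more than that of eIF2, from 843 to 272 and from 968 to 366 CPM. The eIF2 kinases took the opposite course, 104 CPM in cycling-like and 423 CPM in DP-like WT cells, against 47.4 and 175 CPM in the *Eif4g2* cKO library. In DP-like cells of both libraries most of the kinase sum was *Eif2ak3* alone, so its course was largely that of this gene. eIF4G was also at its lowest outside the DP and later classes, with 368 CPM in DN-like and 562 CPM in DP-like WT cells.

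**Figure D1:**
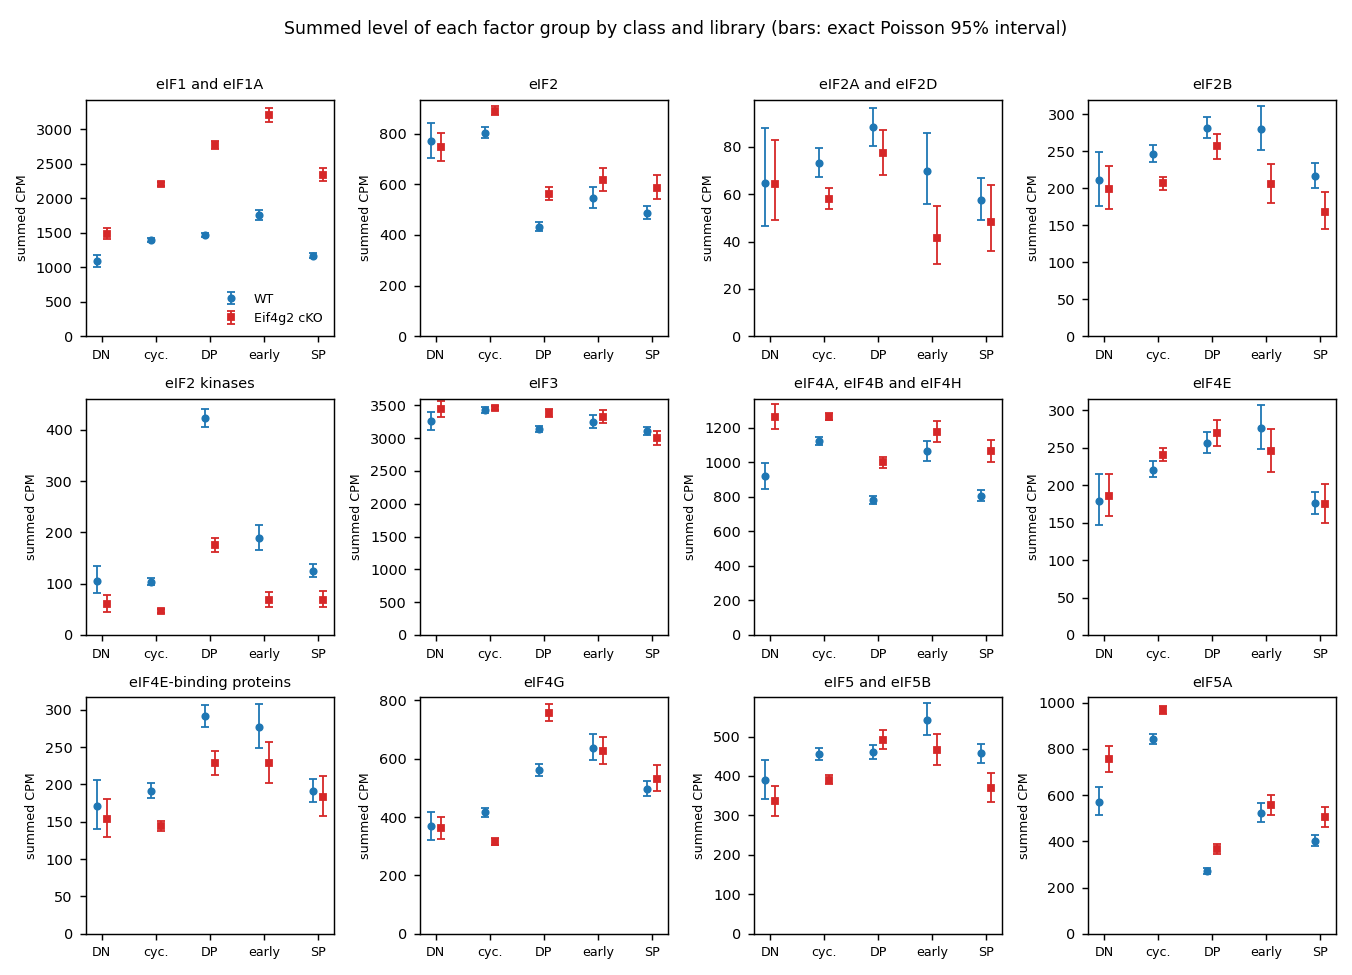
Summed CPM of 12 factor groups (one panel each, own axis from 0) in DN-like (DN), cycling-like (cyc.), DP-like (DP), early post-selection-like (early) and mature SP-like (SP) cells of the WT library (blue circles) and the *Eif4g2* cKO library (red squares), with exact Poisson 95% intervals of counting error. The eIF2 and eIF5A sums were lowest in DP-like cells of both libraries, the eIF2 kinase sum was highest there, and the eIF3 sum stayed between 2999.7 and 3457 CPM. The eIF2 sum leaves out the Y-linked *Eif2s3y*, and most of the kinase sum in DP-like cells was *Eif2ak3*.

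DP-like cells were set against DN-like cells to see which initiation factors differ once thymocytes have passed from the DN to the DP stage. In both libraries DP-like cells had more *Eif2ak3*, *Eif4e3*, *Eif4a2*, *Eif4g2*, *Eif4g3*, *Eif4ebp2*, *Eif1* and *Eif1b*, and less *Eif5a*, *Eif4a1*, *Eif3b*, *Eif2s1* and *Eif1a*, than DN-like cells. In the WT library 13 of 50 members with at least 50 UMIs (26%) were higher by over 0.5 and 13 (26%) lower, against 51.6% and 14.4% of all 8402 genes tested. In the *Eif4g2* cKO library 13 of 49 members with at least 50 UMIs (26.5%) were higher by over 0.5 and 8 (16.3%) lower, against 53.3% and 12.5% of all 7551 genes tested. The share of members that were higher was below that of all genes in both libraries, and this difference was not tested. The median log2 ratio of members was 0.12 in WT and 0.10 in *Eif4g2* cKO cells, and that of all genes 0.54 and 0.57. With median-of-ratios scaling, which puts the typical gene near 0, the members past 0.5 were 5 higher and 24 lower in WT and 5 higher and 23 lower in *Eif4g2* cKO cells. They were 6 and 17 in WT and 10 and 16 in *Eif4g2* cKO cells with ribosomal protein and mitochondrial genes left out of the totals, and 6 and 24 and 6 and 21 relative to genes of the same span, higher and lower in this order. In both libraries together, 11 members were higher and 8 lower, of 49, against 42.7% and 9.39% of all genes. Past 0.5 under all alternatives that gave a value were 6 of the 19 named members past it in WT (*Eif1a*, *Eif2ak1*, *Eif2ak3*, *Eif2b4*, *Eif3b* and *Eif4e3*) and 10 of 19 in *Eif4g2* cKO cells (*Eif1a*, *Eif2ak2*, *Eif2ak3*, *Eif2s1*, *Eif3b*, *Eif4a1*, *Eif4a2*, *Eif4e3*, *Eif4g2* and *Eif5a*).

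Among the eIF2 kinases, *Eif2ak3* (PERK, the kinase of the endoplasmic reticulum stress response) stood at 45.9 CPM [30.7 to 65.9] in DN-like and 357 CPM [341 to 374] in DP-like WT cells, a 7.79-fold difference, and at 13.9 CPM [7.42 to 23.8] and 124 CPM [112 to 136] in the *Eif4g2* cKO library, 8.87-fold. It remained past 0.5 relative to the median of all genes (2.43 and 2.58). *Eif2ak3* was among the leading genes of DP-like cluster 0 although it was kept out of the clustering. *Eif2ak1* (HRI, activated by heme shortage) had log2 ratios of 1.09 [0.18 to 2.18] in WT and 0.63 [-0.084 to 1.41] in *Eif4g2* cKO cells, on 10 and 19 UMIs in DN-like cells. *Eif2ak2* (PKR, which binds double-stranded RNA) was at -0.76 [-1.45 to -0.012] in WT and -0.67 [-1.50 to 0.21] in *Eif4g2* cKO cells, but the WT value turned to 1.19 when classes were set by marker transcript gates.

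Of eIF2 itself, *Eif2s1*, the subunit that these kinases phosphorylate, was lower in DP-like cells, with log2 ratios of -0.55 [-0.99 to -0.095] in WT and -0.84 [-1.17 to -0.50] in *Eif4g2* cKO cells. Of eIF2B, the catalytic-complex gene *Eif2b3* was lower (-0.80 [-1.48 to -0.069] in WT and -1.07 [-1.79 to -0.32] in *Eif4g2* cKO cells), and the regulatory subunit gene *Eif2b4* was higher (1.48 [0.76 to 2.30] in WT and 0.79 [0.27 to 1.34] in *Eif4g2* cKO cells). With at most 10000 UMIs and 3% mitochondrial UMIs per cell the WT value of *Eif2b3* turned to 0.22. Exon sequence of *Eif2b4* is shared with *Snx17* on the opposite strand, and whether strand was used in counting is not given in the sources used here. The eIF2B genes therefore lay on both sides of 0 within the same libraries.

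In the mRNA-binding step the paralogs parted. *Eif4a1* was at 593, 763, 382, 697 and 490.2 CPM in WT cells, and at 849, 877, 524, 776 and 629.9 CPM in *Eif4g2* cKO cells, in the order DN-like, cycling-like, DP-like, early post-selection-like and mature SP-like. *Eif4a2* was at 63.3, 48.7, 112, 109 and 103 CPM in WT cells, and at 80.4, 76.1, 183, 151 and 208 CPM in *Eif4g2* cKO cells in the same order. The first was lowest and the second near its highest in DP-like cells. Against DN-like cells *Eif4a1* had log2 ratios of -0.64 [-0.79 to -0.47] in WT and -0.70 [-0.82 to -0.57] in *Eif4g2* cKO cells. Its paralog *Eif4a2* had 0.82 [0.36 to 1.32] in WT and 1.19 [0.84 to 1.55] in *Eif4g2* cKO cells. Relative to the median of all genes *Eif4a2* was at 0.29 and 0.62. Of the cap-binding genes, *Eif4e3* was at 28.5 CPM in DN-like and 89.4 in DP-like WT cells and at 13.9 and 64.1 in the *Eif4g2* cKO library, and so was higher (1.65 [0.97 to 2.42] in WT and 2.20 [1.40 to 3.13] in *Eif4g2* cKO cells), while *Eif4e* and *Eif4e2* stayed within 0.5. *Eif4e3* shares exon sequence with *Gm20696* on the same strand. *Eif4ebp2*, a 4E-BP, was higher (1.09 [0.74 to 1.45] in WT and 0.91 [0.60 to 1.25] in *Eif4g2* cKO cells).

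Of the factors of start-codon choice, *Eif1* was higher in DP-like cells (0.54 [0.40 to 0.68] in WT and 1.01 [0.92 to 1.11] in *Eif4g2* cKO cells), and so were its paralog *Eif1b* (0.66 [0.35 to 0.99] in WT and 0.98 [0.74 to 1.23] in *Eif4g2* cKO cells) and *Eif5*, the GTPase-activating factor of eIF2 (0.53 [0.25 to 0.83] in WT and 0.80 [0.56 to 1.06] in *Eif4g2* cKO cells). In the WT library these 3 were near the median of all genes once scaled to it (0.0077, 0.13 and 0.0011). *Eif1a* was lower (-1.09 [-1.65 to -0.50] in WT and -0.74 [-1.33 to -0.13] in *Eif4g2* cKO cells). *Eif5a* was lower, at 571 CPM in DN-like and 269.8 in DP-like WT cells (log2 ratio -1.08 [-1.25 to -0.91]) and 756 and 363 CPM in the *Eif4g2* cKO library (-1.06 [-1.19 to -0.92]). Of 13 eIF3 genes with enough UMIs, none was higher, 4 were lower in WT and 2 in *Eif4g2* cKO cells, and *Eif3b* (-0.90 [-1.37 to -0.41] in WT and -1.10 [-1.51 to -0.68] in *Eif4g2* cKO cells) and *Eif3i* (-0.51 [-0.76 to -0.27] in WT and -0.51 [-0.72 to -0.30] in *Eif4g2* cKO cells) were lower in both.

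DP-like cells were next set against cycling-like cells, a class of dividing thymocytes with far more UMIs than the DN-like class. *Eif5a*, *Eif4a1*, *Eif2s1*, *Eif2s2*, *Eif3b* and *Eif1ax* were lower in DP-like cells of both libraries, by 0.64 to 1.64 on the log2 scale, and *Eif2ak3*, *Eif4e3*, *Eif4a2* and *Eif4g3* were higher by 1.08 or more. In WT cells 7 of 51 members with at least 50 UMIs (13.7%) were higher by over 0.5 and 13 (25.5%) lower, against 53.2% and 17.2% of all 9397 genes tested. In the *Eif4g2* cKO library 9 of 50 members with at least 50 UMIs (18%) were higher by over 0.5 and 10 (20%) lower, against 56.2% and 14.9% of all 9105 genes tested. The median log2 ratio was -0.069 for members and 0.57 for all genes in WT cells, and 0.014 and 0.65 in *Eif4g2* cKO cells. With median-of-ratios scaling, which puts the typical gene near 0, the members past 0.5 were 4 higher and 31 lower in WT and 5 higher and 29 lower in *Eif4g2* cKO cells. They were 6 and 18 in WT and 7 and 13 in *Eif4g2* cKO cells with ribosomal protein and mitochondrial genes left out of the totals, and 3 and 31 and 4 and 27 relative to genes of the same span, higher and lower in this order. In both libraries together 6 members were higher and 9 lower, of 50, against 48.8% and 13.6% of all genes. Past 0.5 under all alternatives that gave a value were 11 of the 15 named members past it in WT (*Eif1ax*, *Eif2ak3*, *Eif2s1*, *Eif2s2*, *Eif3b*, *Eif3j1*, *Eif4a1*, *Eif4a2*, *Eif4a3*, *Eif4e3* and *Eif5a*) and 10 of 16 in *Eif4g2* cKO cells (*Eif1ax*, *Eif2ak3*, *Eif2s1*, *Eif3b*, *Eif4a1*, *Eif4a2*, *Eif4a3*, *Eif4e3*, *Eif4g2* and *Eif5a*). The median UMI count per cell was 5347 in cycling-like and 1408 in DP-like WT cells.

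The largest lower value was that of *Eif5a*, at 840.3 CPM [819.6 to 861] in cycling-like and 269.8 CPM [256 to 284] in DP-like WT cells and 965 CPM [947 to 983] and 363 CPM [343 to 384] in the *Eif4g2* cKO library. The log2 ratios were -1.64 [-1.72 to -1.56] in WT and -1.41 [-1.50 to -1.33] in *Eif4g2* cKO cells. *Eif4a1* followed the same course, with -1.0 [-1.07 to -0.93] in WT and -0.74 [-0.82 to -0.67] in *Eif4g2* cKO cells. In eIF2, *Eif2s1* had -1.05 [-1.25 to -0.86] in WT and -1.01 [-1.22 to -0.81] in *Eif4g2* cKO cells, and *Eif2s2*, the beta subunit, had -0.91 [-0.98 to -0.83] in WT and -0.64 [-0.72 to -0.56] in *Eif4g2* cKO cells. DP-like cells of both libraries thus had less of these 2 transcripts of the ternary complex.

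In eIF3, 5 of 14 genes were lower in WT and 3 of 13 in *Eif4g2* cKO cells, and none was higher. The 3 that were lower in both were *Eif3b* (-1.20 [-1.44 to -0.98] in WT and -1.07 [-1.34 to -0.80] in *Eif4g2* cKO cells), *Eif3i* (-0.67 [-0.78 to -0.56] in WT and -0.58 [-0.70 to -0.45] in *Eif4g2* cKO cells) and *Eif3j1* (-0.87 [-1.02 to -0.72] in WT and -0.51 [-0.68 to -0.34] in *Eif4g2* cKO cells). *Eif1ax*, the X-linked eIF1A gene, was lower (-0.81 [-0.93 to -0.68] in WT and -0.71 [-0.84 to -0.58] in *Eif4g2* cKO cells), and so was *Eif4a3*, the helicase of the exon junction complex (-0.78 [-0.89 to -0.66] in WT and -0.53 [-0.65 to -0.41] in *Eif4g2* cKO cells). Reads of *Eif3j1* and *Eif3j2*, and of *Eif1a* and *Eif1ax*, may be shared between near-identical copies. *Eif3j1* also shares exon sequence with *Spg11* on the opposite strand. The same holds for *Eif2ak1* (with *Aimp2* and *Ankrd61*), *Eif5b* (with *Rev1*) and *Eif1ad* (with *Banf1*).

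Of the members that were higher, *Eif2ak3* led, with 2.53 [2.38 to 2.68] in WT and 2.84 [2.59 to 3.09] in *Eif4g2* cKO cells. *Eif4e3* had 1.78 [1.53 to 2.02] in WT and 1.53 [1.27 to 1.80] in *Eif4g2* cKO cells, and *Eif4a2* had 1.20 [1.01 to 1.39] in WT and 1.27 [1.12 to 1.42] in *Eif4g2* cKO cells. The difference between the log2 ratios of *Eif4a1* and *Eif4a2* was -2.20 [-2.40 to -2.0] in WT and -2.01 [-2.17 to -1.84] in *Eif4g2* cKO cells, with the 2 helicase genes on opposite sides of 0 in each library. *Eif2ak1* (0.75 [0.43 to 1.07] in WT and 0.99 [0.63 to 1.34] in *Eif4g2* cKO cells) and *Eif4ebp2* (0.75 [0.63 to 0.87] in WT and 0.91 [0.77 to 1.05] in *Eif4g2* cKO cells) were higher too. *Eif2ak3*, *Eif4a2*, *Eif4e3* and *Eif4g3* remained past 0.5 in both libraries relative to the median of all genes, but relative to genes of its span *Eif4g3* was at -0.013 in WT and 0.41 in *Eif4g2* cKO cells.

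**Figure D2:**
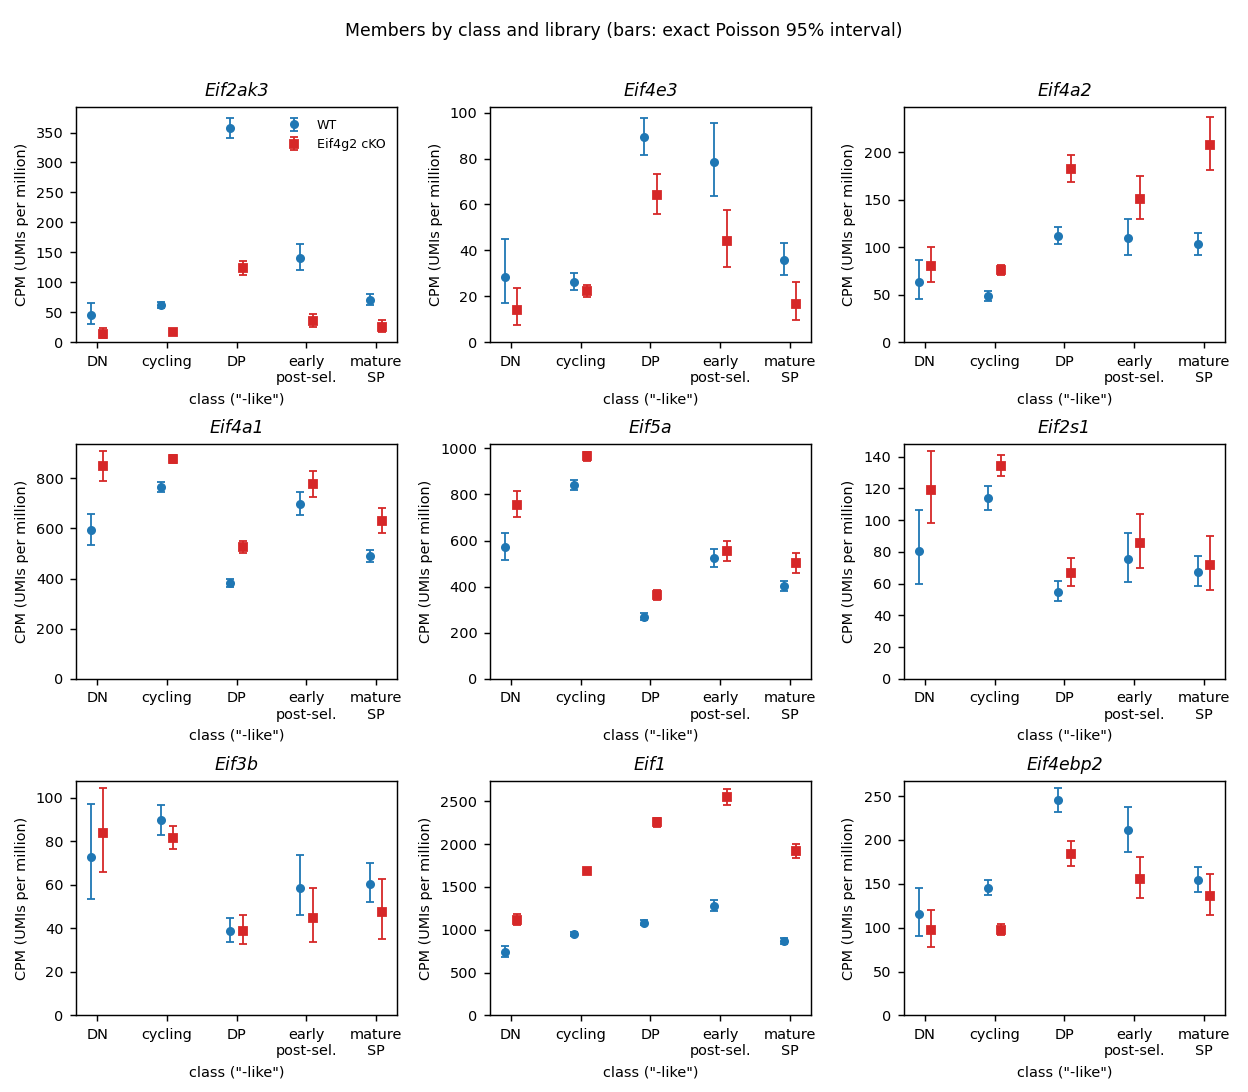
CPM of 9 members (one panel each, own axis from 0) in 5 classes of the WT library (blue circles) and the *Eif4g2* cKO library (red squares), with exact Poisson 95% intervals of counting error. *Eif2ak3* and *Eif4e3* were highest in DP-like cells of both libraries, *Eif4a1*, *Eif5a*, *Eif2s1* and *Eif3b* were lowest there, and *Eif1* was higher in the *Eif4g2* cKO library in each class.

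Early post-selection-like cells were set against DP-like cells to cover the passage through positive selection. They were named from *Cd69* (166 CPM against 12.2 in DP-like WT cells) and related markers. *Eif5a*, *Eif4a1*, *Eif1a*, *Eif2b3* and *Eif4ebp1* were higher in early post-selection-like cells of both libraries, and *Eif2ak3* was lower. Within the WT library 10 of 50 members with at least 50 UMIs (20%) were higher by over 0.5 and 2 (4%) lower, against 12.3% and 26.6% of all 8542 genes tested. In the *Eif4g2* cKO library 6 of 49 members with at least 50 UMIs (12.2%) were higher by over 0.5 and 6 (12.2%) lower, against 8.86% and 30.8% of all 7634 genes tested. The median log2 ratio was 0.21 for members and -0.16 for all genes in WT cells, and 0.031 and -0.24 in *Eif4g2* cKO cells. With median-of-ratios scaling, which puts the typical gene near 0, the members past 0.5 were 17 higher and 2 lower in WT and 10 higher and 4 lower in *Eif4g2* cKO cells. They were 13 and 2 in WT and 7 and 4 in *Eif4g2* cKO cells with ribosomal protein and mitochondrial genes left out of the totals, and 17 and 2 and 9 and 4 relative to genes of the same span, higher and lower in this order. In both libraries together 5 members were higher and 1 lower, of 49, against 5.96% and 17.1% of all genes. Past 0.5 under all alternatives that gave a value were 5 of the 6 named members past it in WT (*Eif2ak3*, *Eif2b3*, *Eif4a1*, *Eif4ebp1* and *Eif5a*) and 2 of 6 in *Eif4g2* cKO cells (*Eif1a* and *Eif2ak3*).

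Of the 9 members lower in DP-like than in cycling-like cells of both libraries, 2 (*Eif4a1* and *Eif5a*) were higher here in both. *Eif5a* went from 269.8 to 524 CPM in WT and from 363 to 554 CPM in *Eif4g2* cKO cells, with log2 ratios of 0.96 [0.82 to 1.09] in WT and 0.61 [0.47 to 0.75] in *Eif4g2* cKO cells. *Eif4a1* went from 382 to 697 and from 524 to 776 CPM (0.87 [0.75 to 0.98] in WT and 0.57 [0.45 to 0.68] in *Eif4g2* cKO cells). In both libraries the level of *Eif4a1* in early post-selection-like cells came near that in cycling-like cells (763 and 877 CPM), while *Eif5a* stayed below its cycling-like level (840.3 and 965 CPM).

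*Eif4ebp1*, a 4E-BP gene, was higher on few UMIs (1.20 [0.58 to 1.80] in WT and 0.69 [0.083 to 1.29] in *Eif4g2* cKO cells). *Eif1a* had 0.94 [0.47 to 1.39] in WT and 0.79 [0.24 to 1.32] in *Eif4g2* cKO cells. *Eif2b3*, which was lower in DP-like than in DN-like cells, had 1.02 [0.51 to 1.52] in WT and 0.62 [-0.16 to 1.36] in *Eif4g2* cKO cells, and its interval reached 0 in the *Eif4g2* cKO library. *Eif2ak3* was at 141 CPM [121 to 164] and 34.8 CPM [24.9 to 47.1], with log2 ratios of -1.34 [-1.57 to -1.12] in WT and -1.83 [-2.33 to -1.37] in *Eif4g2* cKO cells. Of the other measured 4E-BP gene, *Eif4ebp2*, the ratios were -0.22 and -0.24.

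In the last comparison of stages, mature SP-like against DP-like cells, *Eif2ak3*, *Eif4e3*, *Eif4h*, *Eif2a*, *Eif2ak1*, *Eif2b2* and *Eif2b4* were lower in mature SP-like cells of both libraries, and no member was higher in both. For WT cells, 2 of 50 members with at least 50 UMIs (4%) were higher by over 0.5 and 10 (20%) lower, against 13.1% and 45.8% of all 8964 genes tested. In the *Eif4g2* cKO library 1 of 49 members with at least 50 UMIs (2.04%) was higher by over 0.5 and 10 (20.4%) lower, against 7.42% and 49.7% of all 7537 genes tested. The median log2 ratio was -0.087 for members and -0.43 for all genes in WT cells, and -0.23 and -0.50 in *Eif4g2* cKO cells. With median-of-ratios scaling, which puts the typical gene near 0, the members past 0.5 were 16 higher and 3 lower in WT and 12 higher and 4 lower in *Eif4g2* cKO cells. They were 5 and 5 in WT and 6 and 6 in *Eif4g2* cKO cells with ribosomal protein and mitochondrial genes left out of the totals, and 16 and 3 and 12 and 4 relative to genes of the same span, higher and lower in this order. In both libraries together 0 of 49 members were higher and 7 lower, against 6.34% and 37.5% of all genes. Past 0.5 under all alternatives that gave a value were 2 of the 7 named members past it in WT (*Eif2ak3* and *Eif4e3*) and 3 of 8 in *Eif4g2* cKO cells (*Eif2a*, *Eif2ak3* and *Eif4e3*).

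*Eif2ak3* was at 70.8 CPM [61.6 to 81.0] in WT and 25.2 CPM [16.4 to 36.9] in *Eif4g2* cKO mature SP-like cells, with log2 ratios of -2.33 [-2.55 to -2.13] in WT and -2.30 [-2.93 to -1.72] in *Eif4g2* cKO cells. *Eif4e3* had -1.32 [-1.64 to -1.02] in WT and -1.96 [-2.77 to -1.25] in *Eif4g2* cKO cells. These were the 2 members past 0.5 in both libraries on both scalings. *Eif2ak1* (-0.61 [-1.04 to -0.20] in WT and -0.94 [-1.77 to -0.19] in *Eif4g2* cKO cells), *Eif2b2* (-0.58 [-0.81 to -0.35] in WT and -0.79 [-1.23 to -0.37] in *Eif4g2* cKO cells) and *Eif2b4* (-0.51 [-0.80 to -0.23] in WT and -0.70 [-1.22 to -0.22] in *Eif4g2* cKO cells) were lower by less.

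*Eif4h*, which helps eIF4A unwind mRNA, was lower at -0.82 [-1.01 to -0.63] in WT and -1.08 [-1.42 to -0.75] in *Eif4g2* cKO cells, while *Eif4b*, with a like role, was at 0.069 and 0.27. *Eif2a*, an initiator-tRNA factor that is distinct from eIF2, had -0.76 [-1.07 to -0.45] in WT and -1.20 [-1.88 to -0.58] in *Eif4g2* cKO cells. It shares exon sequence with *Serp1* on the opposite strand. *Eif5a* was at 0.57 and 0.47 and *Eif3b* at 0.63 and 0.28, past 0.5 in the WT library alone, and the difference between the libraries was not tested. The 4 stage comparisons share the DP-like cells of each library.

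**Figure D3:**
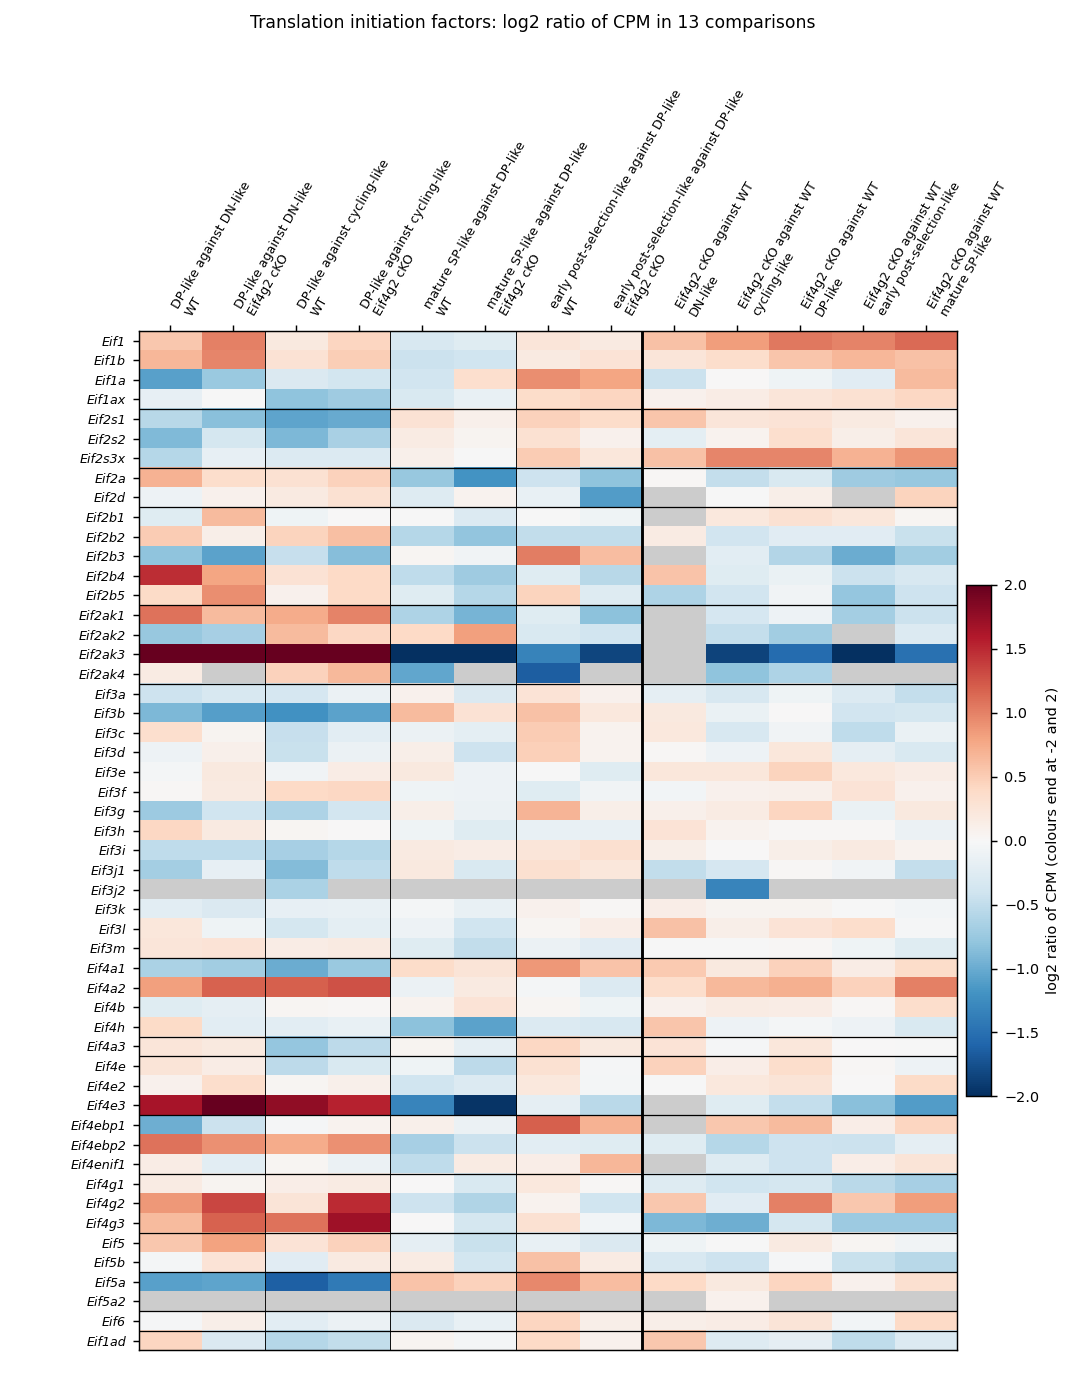
Log2 ratio of CPM of the members (rows, ordered by factor group, black lines between groups) in the 8 stage comparisons (left of the thick line) and the 5 comparisons of *Eif4g2* cKO with WT (right of it). Red is higher and blue lower in the first-named side, colours end at -2 and 2, and grey marks fewer than 50 UMIs over both sides; *Eif2ak3* is the row with the deepest colours, up to 3.15 in DP-like against DN-like *Eif4g2* cKO cells.

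Of the eIF4G genes, *Eif4g2* (ENSMUSG00000005610.17, chr7:111067750-111083030 of GRCm38, minus strand, 15281 bp) was higher in DP-like than in DN-like cells of both libraries, and so was *Eif4g3*, while *Eif4g1* stayed within 0.5. In the WT library *Eif4g2* was at 142 CPM [114 to 175] in DN-like, 218 CPM [207 to 229] in cycling-like, 259 CPM [246 to 274] in DP-like, 274 CPM [246 to 304] in early post-selection-like and 194 CPM [178 to 210.2] in mature SP-like cells. From high to low the order was early post-selection-like, DP-like, cycling-like, mature SP-like and DN-like. The intervals of the first 2 overlapped, as did those of cycling-like and mature SP-like cells, and DN-like cells lay below all others.

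In the *Eif4g2* cKO library the same gene was at 206 CPM [178 to 237] in DN-like, 186 CPM [178 to 194] in cycling-like, 521 CPM [497 to 545] in DP-like, 396 CPM [361 to 433] in early post-selection-like and 344 CPM [309.6 to 382] in mature SP-like cells. DP-like cells came first here and did not overlap with any other class. The intervals of early post-selection-like and mature SP-like cells overlapped, and so did those of DN-like and cycling-like cells. The log2 ratio of DP-like to DN-like cells was 0.87 [0.56 to 1.19] in WT and 1.34 [1.12 to 1.56] in *Eif4g2* cKO cells, and that of DP-like to cycling-like cells 0.25 [0.15 to 0.36] in WT and 1.49 [1.39 to 1.58] in *Eif4g2* cKO cells. Relative to the median of all genes the first was 0.34 and 0.78 and the second -0.32 and 0.84, so that in WT cells *Eif4g2* was below the median gene when DP-like were set against cycling-like cells. Set against the DP-like class, early post-selection-like cells had 0.077 [-0.10 to 0.25] in WT and -0.40 [-0.55 to -0.25] in *Eif4g2* cKO cells, and mature SP-like cells -0.42 [-0.56 to -0.28] in WT and -0.60 [-0.76 to -0.43] in *Eif4g2* cKO cells.

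*Eif4g1*, the main scaffold of eIF4F (chr16, 24572 bp), kept to 112 to 146 CPM over the WT classes and to 79.3 to 100.0 CPM over the *Eif4g2* cKO classes. None of its 8 stage ratios was past 0.5 in the main setting. Under the alternatives its ratio of DP-like to DN-like cells ran from -0.37 to 0.82 in WT and from -0.50 to 0.73 in *Eif4g2* cKO cells. That of mature SP-like to DP-like *Eif4g2* cKO cells reached -0.94, so its place within 0.5 rests on the setting. *Eif4g3*, a second cap-dependent scaffold whose gene spans 215487 bp on chr4, was at 114, 83.3, 176, 218 and 177 CPM in WT and at 61.1, 42.4, 138, 132 and 107 CPM in *Eif4g2* cKO cells, in the order of the stages. Its log2 ratio of DP-like to cycling-like cells was 1.08 [0.93 to 1.23] in WT and 1.70 [1.51 to 1.88] in *Eif4g2* cKO cells, and to DN-like cells 0.63 [0.28 to 0.99] in WT and 1.17 [0.77 to 1.59] in *Eif4g2* cKO cells. Genes of its span were also higher in DP-like cells: the median of all genes over 100 kb was 1.09 and 1.29 against cycling-like cells and 0.91 and 1.06 against DN-like cells, and relative to these *Eif4g3* was at -0.013, 0.41, -0.28 and 0.11, with a change of sign in both WT values.

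Between the libraries, the 3 genes went different ways. In DP-like cells the *Eif4g2* cKO to WT ratio, on the log2 scale, was 1.00 [0.90 to 1.11] for *Eif4g2*, -0.36 [-0.55 to -0.17] for *Eif4g1* and -0.35 [-0.52 to -0.19] for *Eif4g3*. Relative to the median of genes over 100 kb, *Eif4g3* was at 0.40 in DP-like cells, 0.19 in early post-selection-like cells and 0.24 in mature SP-like cells, with the opposite sign. The unscaled ratio of *Eif4g2* exceeded that of *Eif4g1* by 1.36 [1.15 to 1.58] and that of *Eif4g3* by 1.36 [1.17 to 1.55]. In mature SP-like cells the values were 0.83 [0.64 to 1.02], -0.67 [-1.03 to -0.32] and -0.72 [-1.03 to -0.42], and in early post-selection-like cells 0.53 [0.33 to 0.74], -0.55 [-0.89 to -0.20] and -0.72 [-1.01 to -0.43]. The highest of these values put transcripts with the 3′ end of *Eif4g2* at 2.01 times the WT level, in DP-like cells. Recombination was not measured in any class.

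The DN-like and cycling-like classes were set beside these. In DN-like cells, a stage before *CD4-Cre* acts, *Eif4g2* was at 0.53 [0.16 to 0.91] and at 0.16 with marker transcript gates, which ends the call. Beside it, *Eif4g1* was at -0.25 [-0.72 to 0.22] and *Eif4g3* at -0.90 [-1.43 to -0.38]. In cycling-like cells *Eif4g2* was at -0.23 [-0.32 to -0.13], and at 0.046 relative to the median of all genes, so that its direction there rests on the scaling, beside -0.39 [-0.53 to -0.26] for *Eif4g1* and -0.97 [-1.15 to -0.80] for *Eif4g3*. Within single DP-like clusters the ratio of *Eif4g2* was 0.61 [0.28 to 0.93] in cluster 0, 0.82 [0.51 to 1.11] in cluster 1 and 1.12 [0.76 to 1.49] in cluster 3, above 0 in all 3. The values of *Eif4g3* in these clusters were 0.59 [0.18 to 0.97], 0.28 [-0.18 to 0.73] and -0.46 [-0.91 to 0.018], on both sides of 0, and those of *Eif4g1* were -0.032 [-0.65 to 0.53], -0.23 [-0.81 to 0.31] and -0.039 [-0.62 to 0.60].

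**Figure D4:**
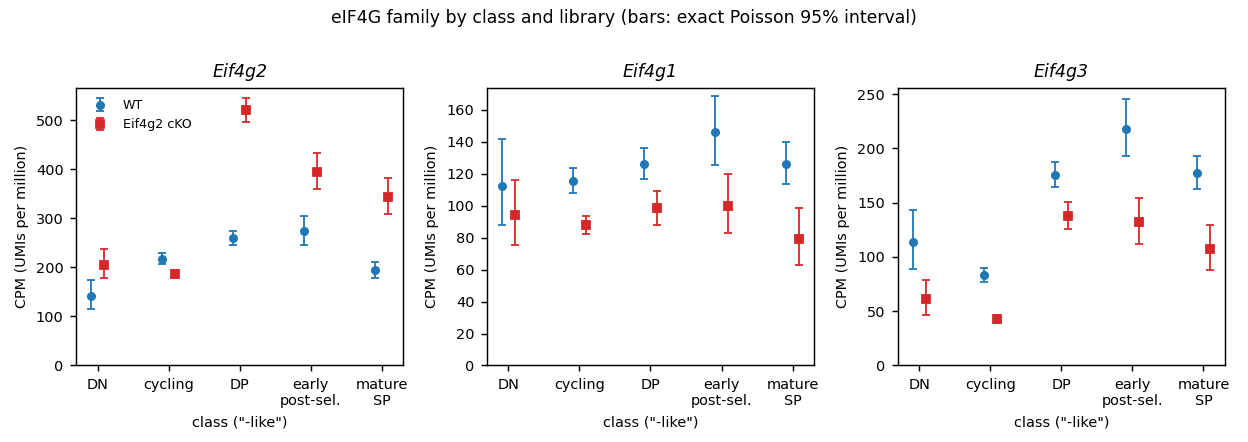
CPM of *Eif4g2*, *Eif4g1* and *Eif4g3* (own axis each, from 0) in 5 classes of the WT library (blue circles) and the *Eif4g2* cKO library (red squares), with exact Poisson 95% intervals of counting error. *Eif4g2* reached 521 CPM in *Eif4g2* cKO DP-like cells against 259 in WT DP-like cells, while *Eif4g1* and *Eif4g3* had fewer CPM in the *Eif4g2* cKO library in all 5 classes. Relative to genes of its span, *Eif4g3* had the opposite direction in DP-like (0.40), early post-selection-like (0.19) and mature SP-like cells (0.24).

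The libraries were compared within each class. Outside eIF4G, the ratio of *Eif4g2* cKO to WT was above 0 in all 5 classes for members that include *Eif1*, *Eif4a1* and *Eif4a2*. It was below 0 in all 5 for *Eif2ak3*. In DP-like cells 6 of 50 members with at least 50 UMIs (12%) were higher by over 0.5 and 4 (8%) lower, against 8.21% and 29.4% of all 8875 genes tested. In cycling-like cells 4 of 52 members with at least 50 UMIs (7.69%) were higher by over 0.5 and 5 (9.62%) lower, against 3.18% and 35.5% of all 9361 genes tested. In DN-like cells 9 of 40 members with at least 50 UMIs (22.5%) were higher by over 0.5 and 2 (5%) lower, against 10.9% and 26.9% of all 4016 genes tested. In early post-selection-like cells 4 of 47 members with at least 50 UMIs (8.51%) were higher by over 0.5 and 10 (21.3%) lower, against 7.60% and 35.0% of all 6039 genes tested. In mature SP-like cells 6 of 49 members with at least 50 UMIs (12.2%) were higher by over 0.5 and 7 (14.3%) lower, against 8.25% and 36.0% of all 7166 genes tested. In all 5 classes the share of members that were lower was below that of all genes, and this difference was not tested.

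With median-of-ratios scaling, the members past 0.5 were 12 higher and 2 lower in DP-like, 7 higher and 4 lower in cycling-like, 10 higher and 2 lower in DN-like, 8 higher and 4 lower in early post-selection-like and 15 higher and 3 lower in mature SP-like cells. They were 10 and 2, 4 and 4, 10 and 2, 6 and 7 and 12 and 6 without ribosomal protein and mitochondrial genes in the totals, and 9 and 2, 4 and 3, 8 and 1, 7 and 5 and 13 and 3 relative to genes of the same span, higher and lower in the same order of classes. The medians of members were 0.083, -0.0080, 0.13, -0.0043 and -0.053 in this order, and those of all genes -0.18, -0.27, -0.10, -0.24 and -0.25. Single clusters aside, the named members past 0.5 under all alternatives with a value were 6 of 8 in DP-like (*Eif1*, *Eif2ak2*, *Eif2ak3*, *Eif2s3x*, *Eif4a2* and *Eif4g2*) and 4 of 7 in cycling-like cells (*Eif1*, *Eif2ak3*, *Eif2s3x* and *Eif4a2*). They were 0 of 6 in DN-like, 3 of 8 in early post-selection-like (*Eif1*, *Eif1b* and *Eif2ak3*) and 4 of 9 in mature SP-like cells (*Eif1*, *Eif4a2*, *Eif4e3* and *Eif4g2*). Within single clusters some of these calls ended. In DP-like cluster 0 *Eif2ak3* was at -0.42, *Eif2s3x* at 0.23 and *Eif2ak2* at 0.49, and in cluster 1 *Eif4a2* was at 0.43. In cycling-like cells *Eif2ak3* was at -0.46 in cluster 6 and *Eif4a2* at 0.0078 in cluster 9. *Eif1b* was at 0.48 in early post-selection-like cluster 8. *Eif1* stayed past 0.5 in each of these clusters, and *Eif4g2* in those of DP-like cells. The ratio went with gene span. In DP-like cells the median of all genes was 0.20 for spans up to 5 kb, -0.16 for 5 to 100 kb and -0.75 over 100 kb. The part of span in the values of single members was not tested.

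**Figure D5:**
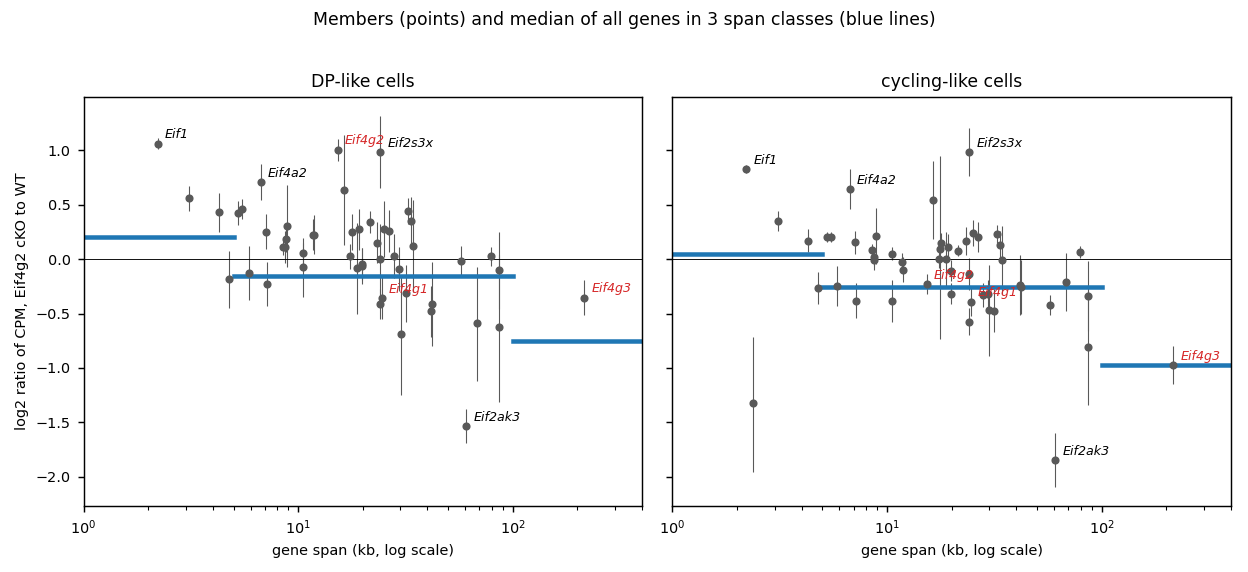
Log2 ratio of CPM, *Eif4g2* cKO to WT, against gene span (kb, log axis) for the members with at least 50 UMIs in DP-like (left) and cycling-like cells (right), with exact 95% intervals of counting error; blue lines are the medians of all genes with spans up to 5 kb, from 5 to 100 kb and over 100 kb. *Eif1*, *Eif2s3x*, *Eif4a2* and, in DP-like cells, *Eif4g2* lie above the line of their span and *Eif2ak3* below it, while *Eif4g3* in cycling-like cells lies on it (-0.0024 from the line).

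*Eif1*, whose protein guards start-codon choice, was higher in all 5 classes, with log2 ratios of 0.59 [0.43 to 0.75] in DN-like, 0.83 [0.79 to 0.87] in cycling-like, 1.06 [1.01 to 1.11] in DP-like, 1.00 [0.91 to 1.09] in early post-selection-like and 1.14 [1.05 to 1.22] in mature SP-like cells. *Eif1* was at 745, 947, 1082, 1278 and 871 CPM in WT cells, and at 1119, 1682, 2254, 2550.5 and 1916 CPM in *Eif4g2* cKO cells, in the order DN-like, cycling-like, DP-like, early post-selection-like and mature SP-like. Its gene spans 2212 bp, and relative to the median of genes of short span the values were 0.47, 0.78, 0.86, 0.90 and 1.03. *Eif1b* was higher in DP-like (0.56 [0.44 to 0.68]), early post-selection-like (0.66 [0.45 to 0.87]) and mature SP-like cells (0.58 [0.36 to 0.80]), and at 0.35 [0.25 to 0.44] in cycling-like cells. Relative to genes of its span *Eif1b*, which spans 3099 bp, was at 0.36 in DP-like, 0.57 in early post-selection-like and 0.48 in mature SP-like cells, past 0.5 in the second of these alone.

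*Eif4a2*, higher in DP-like than in cycling-like cells of both libraries, was at 0.64 [0.46 to 0.82] in cycling-like, 0.71 [0.54 to 0.87] in DP-like, 0.46 [0.13 to 0.79] in early post-selection-like and 1.01 [0.75 to 1.27] in mature SP-like cells of the *Eif4g2* cKO against the WT library. It shares exon sequence with *Rfc4* on the opposite strand, which had 890 UMIs in the WT and 1386 in the *Eif4g2* cKO library. *Eif4ebp1* was higher in cycling-like (0.54 [0.19 to 0.90]) and DP-like cells (0.64 [0.13 to 1.14]). *Eif4ebp2* was lower in cycling-like cells (-0.58 [-0.70 to -0.45]) and at -0.41 [-0.55 to -0.28] in DP-like cells. The 2 genes of 4E-BPs with UMIs thus lay on opposite sides of 0 in both classes as a whole. Within DP-like clusters 0, 1 and 3 *Eif4ebp2* was at -0.18, -0.072 and -0.41. In cycling-like clusters 5, 6 and 9 it was at -0.29, 0.058 and -0.85. The intervals in clusters 0, 1 and 6 reached 0.

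*Eif2ak3* had the lowest ratio of all members with at least 100 UMIs in 1 library in each class in which it reached that count, at -1.84 [-2.09 to -1.60] in cycling-like, -1.53 [-1.69 to -1.38] in DP-like, -2.02 [-2.55 to -1.53] in early post-selection-like and -1.49 [-2.14 to -0.90] in mature SP-like cells. The last value was -0.14 at clustering resolution 1.6, which ends the call there. Relative to genes of its span (60731 bp) it was at -1.37 in DP-like cells. The ratio was smaller within DP-like clusters that hold mostly WT cells: -0.42 [-0.81 to -0.062] in cluster 0 and -0.79 [-1.30 to -0.32] in cluster 1, beside -1.54 [-1.89 to -1.18] in cluster 3. In cycling-like clusters it was -1.11 [-1.56 to -0.67] in cluster 5, -0.46 [-1.15 to 0.17] in cluster 6 and -1.33 [-2.51 to 0.16] in cluster 9, below 0 in all 3, and the intervals of the last 2 reached 0. The other eIF2 kinase genes had far fewer UMIs. *Eif2ak2* was at -0.69 [-1.24 to -0.16] in DP-like and -0.47 [-0.89 to -0.052] in cycling-like cells. Within single clusters its value was 0.49, -0.54 and -1.05 in DP-like clusters 0, 1 and 3. It was -0.036, 0.095 and 0.72 in cycling-like clusters 5, 6 and 9, and the intervals of all these cluster values reached 0. *Eif2ak4* (GCN2, which senses uncharged tRNA) was at -0.62 [-1.31 to 0.038] in DP-like and -0.81 [-1.34 to -0.28] in cycling-like cells, and *Eif2ak1* at -0.10 [-0.46 to 0.25] and -0.34 [-0.66 to -0.015].

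*Eif2s3x*, the X-linked gene of the eIF2 gamma subunit, was higher in cycling-like (0.98 [0.76 to 1.20]) and DP-like cells (0.98 [0.65 to 1.31]) of the *Eif4g2* cKO library. Its Y-linked copy *Eif2s3y* reached 1048 UMIs in WT cells but 0 in *Eif4g2* cKO cells, and reads can be shared between the 2 copies. Summed over both copies the direction was lost or turned: the log2 ratio was -0.036 [-0.21 to 0.14] in cycling-like and -1.26 [-1.51 to -1.02] in DP-like cells. *Eif1ax*, also X-linked, was at 0.41 [0.12 to 0.69] in mature SP-like cells. The Y-linked UMIs of the WT library and its genotype cannot be told apart for these genes.

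Further members had smaller or less certain differences. *Eif3j2*, a near-identical copy of *Eif3j1*, was at -1.32 [-1.95 to -0.71] in cycling-like cells on 61 WT and 37 *Eif4g2* cKO UMIs, beside -0.33 for *Eif3j1*. In DP-like cells *Eif2b3* was at -0.59 [-1.12 to -0.075] and *Eif4e3* at -0.48 [-0.72 to -0.25], and *Eif4e3* was at -1.12 [-1.95 to -0.37] in mature SP-like cells. In DP-like clusters 0, 1 and 3 alone *Eif4e3* was at 0.26 [-0.45 to 0.90], -1.28 [-2.16 to -0.50] and -0.83 [-1.39 to -0.22]. Its overlapping gene *Gm20696* had 1335 UMIs in the WT and 357 in the *Eif4g2* cKO library. *Eif2a* was at -0.47 [-0.67 to -0.27] in cycling-like and -0.75 [-1.45 to -0.11] in mature SP-like cells. In early post-selection-like cells *Eif3c*, an eIF3 core subunit gene, was at -0.50 [-0.78 to -0.22], *Eif1ad* at -0.50 [-0.97 to -0.048] and *Eif3l* at 0.36 [0.020 to 0.70].

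In DN-like cells, which held the fewest UMIs (632344 WT and 933162 *Eif4g2* cKO), the highest members after *Eif1*, among those with at least 100 UMIs in 1 library, were *Eif3l* (0.59 [0.12 to 1.07]), *Eif2s1* (0.56 [0.070 to 1.07]), *Eif4h* (0.55 [0.18 to 0.93]) and *Eif4g2*. The lowest of the same members were *Eif3j1* (-0.49 [-0.90 to -0.073]), *Eif5b* (-0.32 [-0.66 to 0.016]), *Eif2s2* (-0.19 [-0.38 to 0.00010]), *Eif3a* (-0.18 [-0.60 to 0.25]) and *Eif5* (-0.087 [-0.45 to 0.28]). Of 13 eIF3 genes with enough UMIs in DP-like cells, 0 were higher and 0 lower, over a range of -0.090 to 0.44.

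Other genes of translation, a list of 30 elongation, termination and regulatory factors, were counted in the same way. For DP-like against DN-like cells 10 of 28 were higher and 4 lower (all genes 51.6% and 14.4%) in WT, and 9 of 27 were higher and 5 lower (all genes 53.3% and 12.5%) in *Eif4g2* cKO cells, with medians of 0.16 and 0.28. Lowest in both were *Eef2k* (-2.33 and -1.98), the kinase of elongation factor 2, *Eef1g* (-1.77 and -1.51) and *Eef1b2* (-1.51 and -1.22), subunit genes of elongation factor 1. Highest in WT were *Dhx29* (2.97), *Paip2b* (2.89) and *Mtif3* (1.76), and in *Eif4g2* cKO cells *Pdcd4* (1.28), *Paip2b* (1.28) and *Mknk1* (1.01). These values are given without intervals. The WT DN-like class held 632344 UMIs in 99 cells, so counting error is large for genes with few UMIs there. *Dhx29* and *Mtif3* were among the 3 highest in the WT library alone.

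For DP-like against cycling-like cells 9 of 28 were higher and 6 lower (all genes 53.2% and 17.2%) in WT and 8 of 28 were higher and 4 lower (all genes 56.2% and 14.9%) in *Eif4g2* cKO cells. *Pdcd4*, which binds eIF4A and blocks it, was highest in both (1.86 and 2.03), with *Mknk1*, a kinase of eIF4E (1.64 and 1.67), *Mtif3* in WT (1.41) and *Mtif2* in *Eif4g2* cKO cells (1.89). *Eef1g* (-1.44 and -1.04), *Eef1b2* (-1.21 and -1.0) and *Eef1d* (-1.04 and -0.80) were lowest. As shares of UMIs, *Pdcd4* was thus higher and *Eif4a1* lower in DP-like than in cycling-like cells. The level per cell and any effect on eIF4A were not tested.

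After the DP stage 3 elongation factor genes were higher. For mature SP-like against DP-like cells 5 of 28 were higher and 7 lower (all genes 13.1% and 45.8%) in WT and 4 of 28 were higher and 9 lower (all genes 7.42% and 49.7%) in *Eif4g2* cKO cells, with *Eef1b2* (1.43 and 1.18), *Eef1g* (1.30 and 0.93) and *Eef1a1* (0.82 and 0.80) highest and *Ddx3x* (-1.15 and -1.28) and *Paip1* (-1.31 and -0.98) among the lowest, joined by *Mknk1* in WT (-1.40) and *Pdcd4* in *Eif4g2* cKO cells (-1.04). For early post-selection-like against DP-like cells 5 of 28 were higher and 4 lower (all genes 12.3% and 26.6%) in WT and 4 of 27 were higher and 4 lower (all genes 8.86% and 30.8%) in *Eif4g2* cKO cells. Between the libraries 4 of 28 were higher and 4 lower (all genes 8.21% and 29.4%) in DP-like, 1 of 28 was higher and 7 lower (all genes 3.18% and 35.5%) in cycling-like, 0 of 22 were higher and 3 lower (all genes 10.9% and 26.9%) in DN-like, 4 of 23 were higher and 3 lower (all genes 7.60% and 35.0%) in early post-selection-like and 4 of 27 were higher and 5 lower (all genes 8.25% and 36.0%) in mature SP-like cells. *Pdcd4* was the lowest in 4 of these 5 classes, at -0.99 in DN-like, -1.10 in cycling-like, -0.93 in DP-like and -0.98 in mature SP-like cells.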

How the data were processed

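UMI counts per gene and cell of 1 thymus library per genotype were taken as the authors deposited them, as whole numbers that were not normalised. The authors made them with dnbc4tools (2.1.3 in the series text, 3.0 in the file header) on mm10. Gene spans and exon overlaps came from GENCODE M21, which held 21456 of 21926 gene identifiers (97.9%) in the same version.

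Cells with at least 50 genes and at most 10% mitochondrial UMIs were kept, 6012 of 6014 WT and all 4335 *Eif4g2* cKO cells. After scaling each cell to 10000 UMIs and taking logs, 2000 variable genes, chosen without the members, *Eif2s3y* and the other translation genes, gave 30 principal components, 20 neighbours and Leiden clusters at resolution 1 (scanpy 1.11.5, leidenalg 0.10.2). No doublet caller was run, and doublets were treated only by an alternative with at most 10000 UMIs per cell.

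UMIs were summed by class and library, with exact 95% Poisson intervals for CPM and exact conditional binomial ones for log2 ratios (scipy 1.17.1), which cover counting error only. The scripts were tested on simulated counts. Named were the eIF4G genes, members past 0.5 in the same direction in both libraries, and between libraries the 5 highest and 5 lowest members with at least 100 UMIs in 1 library, with the 3 highest and 3 lowest of the other translation genes. Values of further members were chosen after they were seen. The members, lists and comparisons were chosen with earlier results of these data known. The alternatives were other cluster resolutions, scalings, UMI minima, cell filters and marker gates.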

Additional observations from a re-analysis of the deposited data

How the results depend on the processing

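Of 146 counts of members past 0.5 recomputed under an alternative, 129 stayed within 1.5 times the count reported. For DP-like against cycling-like cells, 20 members in WT and 19 in *Eif4g2* cKO cells became 35 and 34 with median-of-ratios scaling, and 34 and 31 relative to genes of the same span. For mature SP-like against DP-like cells, 12 in WT became 19 and 19 under these scalings, and 11 in *Eif4g2* cKO cells became 17 at resolution 1.6. For early post-selection-like against DP-like cells, 12 in WT became 19 and 19 under the scalings and 7 with at least 200 UMIs, and 12 in *Eif4g2* cKO cells became 6 with at least 200 UMIs. That minimum tests fewer genes, and it also left 4 of 11 members between the libraries in DN-like, 6 of 10 in DP-like, 7 of 14 in early post-selection-like and 8 of 13 in mature SP-like cells. In DN-like cells the 11 became 6 at resolution 0.6 and 4 with marker gates.

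Between the libraries, the log2 ratio of *Eif4g2* in DP-like cells, 1.00, was 1.19 with median-of-ratios scaling, 1.13 without ribosomal protein and mitochondrial genes in the totals, 1.16 relative to genes of its span, and 0.61, 0.82 and 1.12 in clusters 0, 1 and 3 alone. Of 1848 values of named genes under an alternative, single clusters not counted, 7 of those past 0.5 and 48 of those within 0.5 changed sign. Of the 7, against DN-like cells in WT, *Eif2ak2* in DP-like cells turned to 1.19 with marker gates and *Eif2b3* to 0.22 with at most 10000 UMIs and 3% mitochondrial UMIs per cell. Relative to genes of the same span, *Eif4g3* turned to -0.28 and *Eif5* to -0.0036 in the same comparison, *Eif4g3* to -0.013 in DP-like against cycling-like WT cells, and *Eif4g3* between the libraries to 0.19 in early post-selection-like and 0.24 in mature SP-like cells. The cause of these changes was not tested. The span and single-cluster alternatives were chosen after seeing the data. No paired analysis was possible because each genotype had 1 library. Depth limits most the DN-like class and members under 50 UMIs.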
